A study of Homo sapiens with 4 samples.

Results

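The genes described here are 10 core members of the Notch pathway: the receptor genes NOTCH1, NOTCH2 and NOTCH3, the ligand genes JAG1, JAG2, DLL1 and DLL4, the receptor-modifying enzyme gene LFNG, and the target genes HES1 and HEY1. They were taken from a list of symbols that was chosen with earlier results of these data known. The symbols were matched through GENCODE release 44 to the Ensembl identifiers of the deposited tables, which hold 58884 genes. All 10 were found once and all 10 passed the filter on low counts. The cells were HCT116, a human colorectal carcinoma line; a further label numbers the line by replicate, which the cell line entry, the same for all 4 libraries, does not. In 2 libraries, called knockdown here, cells carried a short hairpin RNA against RALY, which encodes a heterogeneous nuclear ribonucleoprotein that binds RNA, delivered by lentivirus for 72 h. In the 2 control libraries the labels are divided: the protocol speaks of a nonsilencing hairpin given in the same way, while other labels call the cells untreated or wild type. How many hairpins were used, and their sequence, was not stated in the labels. Separate cultures are not named for the replicates either, so that a p-value here measures only the spread between libraries, which may be technical.

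Notch signalling passes between touching cells. A Jagged (JAG) or Delta-like (DLL) ligand on one cell pulls on a Notch receptor on its neighbour, the receptor is cut by a metalloprotease and then by gamma-secretase, and its intracellular part enters the nucleus, where it binds the DNA-binding protein RBPJ and switches on target genes such as those of the HES and HEY repressor families. Fringe enzymes such as LFNG add sugars to the receptor and shift which ligands it answers to. In the intestinal epithelium the pathway is known for keeping progenitor cells dividing and for holding back the secretory lineage, and JAG1 is known as a target of Wnt signalling in colorectal cancer.

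Library totals ran between 14762755 and 16493967 counts in the knockdown and between 13360007 and 16847520 counts in the controls, so that 3 counts, the limit used for a gene with no count, corresponded to between 0.174 and 0.227 CPM (counts per 1000000 of the TMM-scaled library total). Such limits cover counting error only. RALY had 39.6 and 35.1 CPM in the knockdown libraries, against 144 and 123 CPM in the controls (log2 fold change -1.84, SE 0.127, edgeR adjusted p = 6.59e-06). Of 6 epithelial markers, VIL1 alone lay under 1 CPM in all 4 libraries, and the list summed to 509 and 545 CPM in the knockdown and 565 and 494 CPM in the controls. Of 6 endothelial markers, a cell type known for DLL4 and JAG1, CDH5, TEK and TIE1 lay under 1 CPM in all 4 libraries and no marker was at 0 in all of them; the list summed to 11.2 and 9.01 CPM in the knockdown and 10.8 and 10.9 CPM in the controls. Fibroblast markers summed to between 102 and 132 CPM in the knockdown and between 127 and 147 CPM in the controls, nearly all of it COL1A1 and PDGFRB, while DCN, LUM, PDGFRA and COL1A2 lay under 1 CPM in all 4 libraries. Leukocyte markers summed to between 31.5 and 33.4 CPM in the knockdown and between 32.4 and 36.8 CPM in the controls, with PTPRC and CD3E under 1 CPM in all 4 libraries. Most of the leukocyte sum was CD68, which shares 85.6% of its exon bases with other genes, so its count is uncertain. In RNA from whole cultures, fewer cells of a type and less RNA per cell cannot be told apart.

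After RALY knockdown 5 of the 10 Notch genes were called higher and none was called lower. The genes that rose were the receptor genes NOTCH1 and NOTCH2, the ligand genes JAG1 and DLL4 and the target gene HES1. NOTCH1, NOTCH2, JAG1 and HES1 rose by factors between 1.37 and 1.75. The 2.36-fold change of DLL4 rested on knockdown replicate 2, without which its log2 fold change was 0.22 and not called, against 1.24 with all libraries. NOTCH3, JAG2, DLL1, LFNG and HEY1 were not called. Calls were made with edgeR's quasi-likelihood test where the p, after Benjamini-Hochberg adjustment over all 19686 genes tested, was under 0.05. Over all those genes 12.5% were called higher and 13.1% lower, or 25.6% in either direction, beside 50% higher and 0% lower of the Notch genes. Since the Notch genes were chosen with earlier results of these data known, their shares are not those of an independently chosen set. The median log2 fold change was 0.42 over the 10 genes and 0.01 over all tested genes. At an unadjusted p under 0.05 in the edgeR test the same 5 of the 10 were higher and 0 lower. No share over all genes is given for that limit, so this count cannot be read against a background. The DESeq2 Wald test called 4 of the 10 higher and 0 lower, and 3943 of all genes in either direction, with no share by direction given. The calls depended on both control libraries: without control replicate 1 none of the 10 was called, and without control replicate 2 only JAG1 was called, while the calls over all genes numbered 1008 and 984, against 5048 with all libraries. Without knockdown replicate 1 they were 0.36, 0.40, 0.86, 1.81 and 0.62, and LFNG was called higher as well. Without knockdown replicate 2 they were 0.51, 0.67, 0.73, 0.22 and 0.42, DLL4 was not called and HEY1 was called lower.

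**Figure D1:**
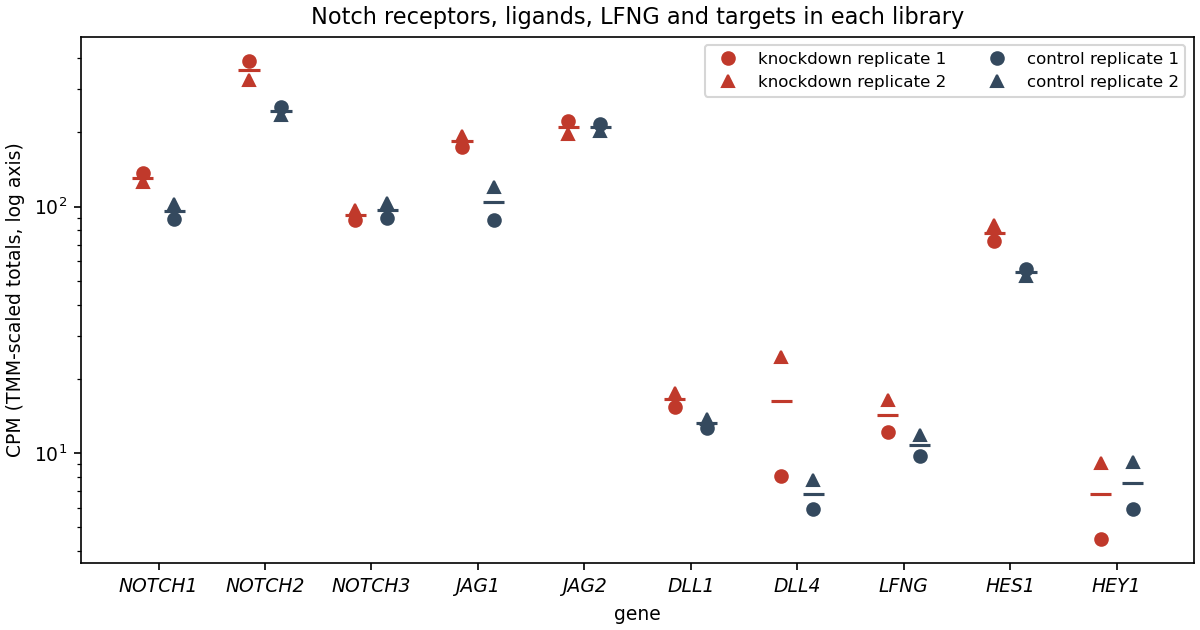
CPM on a log axis for each of the 10 Notch genes in the 2 knockdown libraries (red) and the 2 control libraries (grey-blue), with a short line at each group mean. Both knockdown libraries lie above both controls for NOTCH1, NOTCH2, JAG1, DLL1, DLL4, LFNG and HES1, and the groups overlap for NOTCH3, JAG2 and HEY1.

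In 7 of the 10 genes both knockdown libraries lay above both controls in CPM, in none did both lie below, and in 3 the groups overlapped. Over all tested genes, both knockdown libraries lay above both controls in 32.3% and below them in 31.3%. The limit set by how the Notch genes were chosen holds here too.

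Of the 3 receptor genes NOTCH1 and NOTCH2 rose and NOTCH3 was not called. NOTCH1, which encodes the receptor best known for maintaining intestinal progenitors, is ENSG00000148400 on the minus strand of chromosome 9, at 136494433 to 136546048 (GRCh38, as in the deposited tables, counted from 1). It had 137 and 125 CPM in the knockdown libraries, against 89.4 and 103 CPM in the controls. Both knockdown libraries were above both controls, and NOTCH1 rose 1.37-fold (log2 fold change 0.45, SE 0.117, edgeR adjusted p = 0.0145). NOTCH2 (ENSG00000134250, minus strand of chromosome 1, 119911553 to 120100779) encodes a receptor that acts beside NOTCH1 in the intestinal crypt of the mouse. It had 391 and 326 CPM in the knockdown libraries, against 253 and 235 CPM in the controls. The groups stood apart, by more than the gap between the libraries of either group, and NOTCH2 rose 1.47-fold (log2 fold change 0.55, SE 0.136, edgeR adjusted p = 0.0113). NOTCH3 (ENSG00000074181, minus strand of chromosome 19, 15159038 to 15200995), a receptor best known from vascular smooth muscle, had 88.0 and 97.2 CPM in the knockdown libraries, against 90.0 and 103 CPM in the controls. The groups overlapped, and the log2 fold change was -0.06 with a 95% interval between -0.32 and 0.19 (edgeR adjusted p = 0.743), an interval that lies below the NOTCH2 estimate of 0.55 and below the NOTCH1 estimate of 0.45.

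The calls of NOTCH1 and NOTCH2 were lost without either control library (edgeR adjusted p = 0.207 without control replicate 1 and 0.0702 without control replicate 2 for NOTCH1, 0.0717 and 0.113 for NOTCH2), with the log2 fold change between 0.32 and 0.54 for NOTCH1 and between 0.40 and 0.67 for NOTCH2 over the 4 libraries left out in turn. NOTCH2 has partial copies on chromosome 1, the NOTCH2NL genes, with which it can share reads. NOTCH2NLA, NOTCH2NLB, NOTCH2NLC and NOTCH2NLR together held 287 and 241 counts in the knockdown libraries, against 165 and 181 in the controls, or between 4.46% and 4.97% of the NOTCH2 count in each library. NOTCH2NLR rose 1.96-fold (edgeR adjusted p = 0.0222), and the other three were not called (edgeR adjusted p between 0.374 and 0.548). With their counts added to NOTCH2, an alternative chosen after seeing the data, its log2 fold change was 0.55 (edgeR adjusted p = 0.0116).

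Levels were compared between genes as RPKM, the CPM per kilobase of the merged exon length in the deposited tables. Summed over the 3 receptor genes the level was 41.8 and 38.5 RPKM in the knockdown libraries, against 30.7 and 32.4 RPKM in the controls. NOTCH2 held 46.9% and 42.5% of that sum in the knockdown, against 41.4% and 36.4% in the controls. NOTCH3 held 22.4% and 26.9% in the knockdown, against 31.2% and 33.9% in the controls, so its share was lower in both knockdown libraries while its own level overlapped between the groups. NOTCH1 held 30.8% and 30.6% in the knockdown, against 27.4% and 29.8% in the controls. The NOTCH2 to NOTCH3 ratio per length was 2.10 and 1.58 in the knockdown libraries, against 1.33 and 1.07 in the controls, and the NOTCH1 to NOTCH3 ratio was 1.38 and 1.14 in the knockdown, against 0.878 and 0.879 in the controls. Each ratio was higher in both knockdown libraries than in either control. A comparison of 2 libraries with 2 cannot give an exact two-sided permutation p below 0.333, so no test was made of shares and ratios. With canonical transcript lengths in place of merged exon lengths the NOTCH2 share averaged 56.2% in the knockdown and 50.3% in the controls, and the NOTCH1 shares overlapped between the groups.

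**Figure D2:**
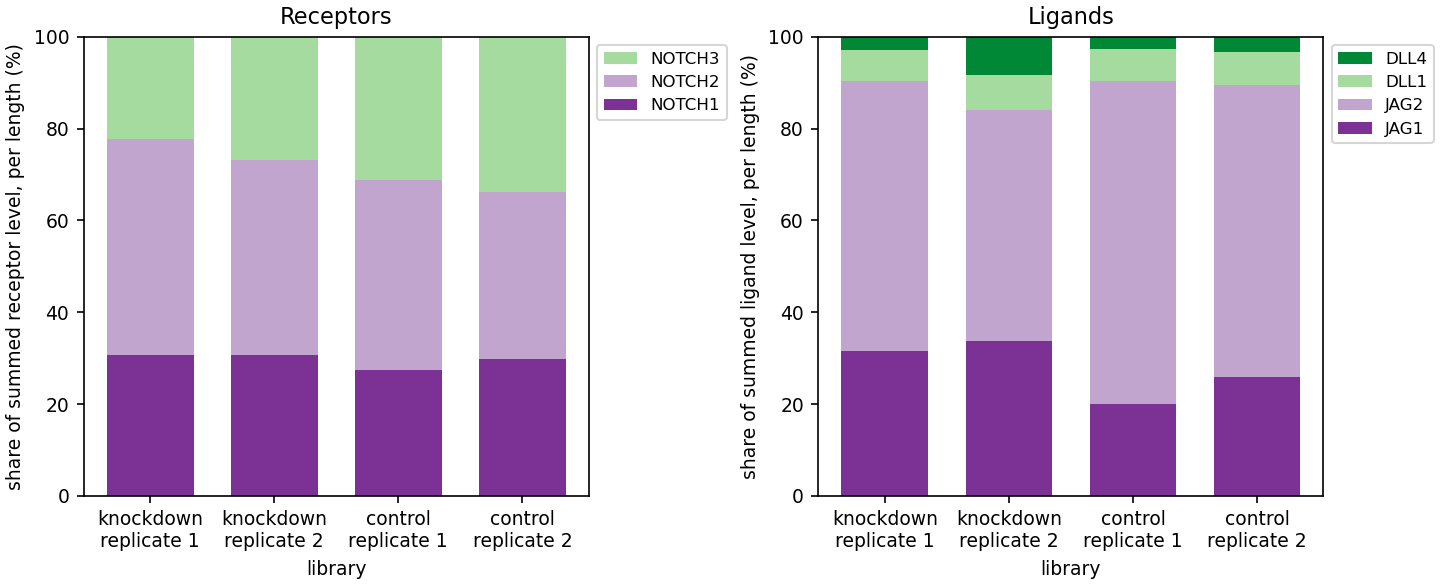
Share of each receptor gene (left) and each ligand gene (right) in the summed level of its family per length, in percent, with 1 stacked bar for each library and no error bars, since each bar is a single library. NOTCH3 takes 22.4% and 26.9% of the receptor level in the knockdown and 31.2% and 33.9% in the controls, and JAG1 takes 31.6% and 33.8% of the ligand level in the knockdown and 19.9% and 25.9% in the controls.

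Of the Jagged ligand genes JAG1 rose and JAG2 was not called. JAG1 (ENSG00000101384, minus strand of chromosome 20, 10637684 to 10673999) had 175 and 193 CPM in the knockdown libraries, against 88.4 and 121 CPM in the controls. Both knockdown libraries were well above both controls, which themselves differed 1.36-fold, and JAG1 rose 1.75-fold (log2 fold change 0.81, SE 0.144, edgeR adjusted p = 0.00185). Its log2 fold change ran between 0.57 and 1.04 with each library left out in turn, and its edgeR adjusted p was 0.0528 without control replicate 1 and 0.0208 without control replicate 2. JAG2 (ENSG00000184916, minus strand of chromosome 14, 105140982 to 105168824), the most abundant ligand gene per length, had 223 and 197 CPM in the knockdown libraries, against 216 and 203 CPM in the controls. The groups overlapped, and the log2 fold change of 0.01 had a 95% interval between -0.26 and 0.27 (edgeR adjusted p = 0.981). JAG2 shares 7.33% of its exon bases with ENSG00000257622 on the same strand. The JAG1 to JAG2 ratio per length was 0.539 and 0.672 in the knockdown libraries, against 0.282 and 0.408 in the controls. JAG1 held 31.6% and 33.8% of the summed ligand level in the knockdown, against 19.9% and 25.9% in the controls, and JAG2 held 58.7% and 50.3% in the knockdown, against 70.6% and 63.6% in the controls. The summed ligand level was 59.4 and 61.3 RPKM in the knockdown libraries, against 47.8 and 49.98 RPKM in the controls.

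DLL4 and DLL1, which encode the Delta-like ligands that act together in mouse intestinal crypts, were far less abundant. DLL4 (ENSG00000128917, plus strand of chromosome 15, 40929340 to 40939073) had 129 and 364 counts in the knockdown libraries, against 78 and 134 in the controls. In CPM these were 8.05 and 24.5 in the knockdown, against 5.91 and 7.75 in the controls, so that knockdown replicate 2 stood far above the other 3 libraries and knockdown replicate 1 was just above control replicate 2. DLL4 had the largest fold change of the 10 genes and passed the test (2.36-fold, log2 fold change 1.24, SE 0.397, edgeR adjusted p = 0.0371). Without knockdown replicate 2 the log2 fold change was 0.22 (edgeR adjusted p = 0.619), and without knockdown replicate 1 it was 1.81, so 1 library decides the value. The call was also lost with the DESeq2 Wald test (DESeq2 adjusted p = 0.267) and when TMM was replaced by DESeq2 size factors or by plain totals (edgeR adjusted p = 0.0610 and 0.0752). Counts corrected for an assumed levelling off of counts per base in the most abundant genes lost it too (edgeR adjusted p = 0.106). With control replicate 1 or 2 left out the call was also lost, with a log2 fold change of 1.03 or 1.44. DLL1 (ENSG00000198719, minus strand of chromosome 6, 170282206 to 170306565) had 15.4 and 17.6 CPM in the knockdown libraries, against 12.7 and 13.8 CPM in the controls. The groups did not overlap but the difference missed the threshold, at 0.32 on the log2 scale with a 95% interval between -0.11 and 0.74 (edgeR adjusted p = 0.259). DLL1 shares 9.69% of its exon bases with FAM120B on the opposite strand, and its count is uncertain since it was not stated whether counting used strand. FAM120B had 1153 and 815 counts in the knockdown libraries, against 1555 and 1912 in the controls, and fell (log2 fold change -0.85, SE 0.135, edgeR adjusted p = 0.00097).

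LFNG (ENSG00000106003, plus strand of chromosome 7, 2512529 to 2529177), the lunatic fringe enzyme, had 12.2 and 16.4 CPM in the knockdown libraries, against 9.78 and 11.8 CPM in the controls. Knockdown replicate 1 lay only just above control replicate 2, and the log2 fold change of 0.40 had a 95% interval between -0.09 and 0.89 (edgeR adjusted p = 0.216). LFNG was called higher without knockdown replicate 1 (log2 fold change 0.58, edgeR adjusted p = 0.0440), and its log2 fold change was 0.16 without knockdown replicate 2.

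HEY1 (ENSG00000164683, minus strand of chromosome 8, 79764010 to 79767857), 1 of the 2 target genes of the set, encodes a repressor best known from the heart and vessels and was not called. It had 72 and 136 counts in the knockdown libraries, against 78 and 159 in the controls. In CPM these were 4.49 and 9.14 in the knockdown, against 5.91 and 9.20 in the controls, so the libraries of a group differed 2.04-fold in the knockdown and 1.56-fold in the controls and the groups overlapped. The log2 fold change was -0.16 with a 95% interval between -0.89 and 0.57 (edgeR adjusted p = 0.772), wide enough to hold the HES1 estimate of 0.54. Its direction depended on single libraries, with 0.24 on the log2 scale without knockdown replicate 1 and -0.77 without knockdown replicate 2 (edgeR adjusted p = 0.553 and 0.0499).

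HES1 (ENSG00000114315, plus strand of chromosome 3, 194136148 to 194138732) encodes the best known transcriptional repressor switched on by Notch. It had 72.6 and 84.3 CPM in the knockdown libraries, against 56.0 and 52.2 CPM in the controls. Both knockdown libraries lay above both controls, and HES1 rose 1.45-fold (log2 fold change 0.54, SE 0.123, edgeR adjusted p = 0.0079). Its log2 fold change ran between 0.42 and 0.62 with each library left out in turn, and the call was lost without either control library (edgeR adjusted p = 0.0987 without control replicate 1 and 0.137 without control replicate 2). HES1 had the highest count for its transcript length of the 10 genes, and with that correction for an assumed levelling off its log2 fold change was 0.65 (edgeR adjusted p = 0.0061).

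**Figure D3:**
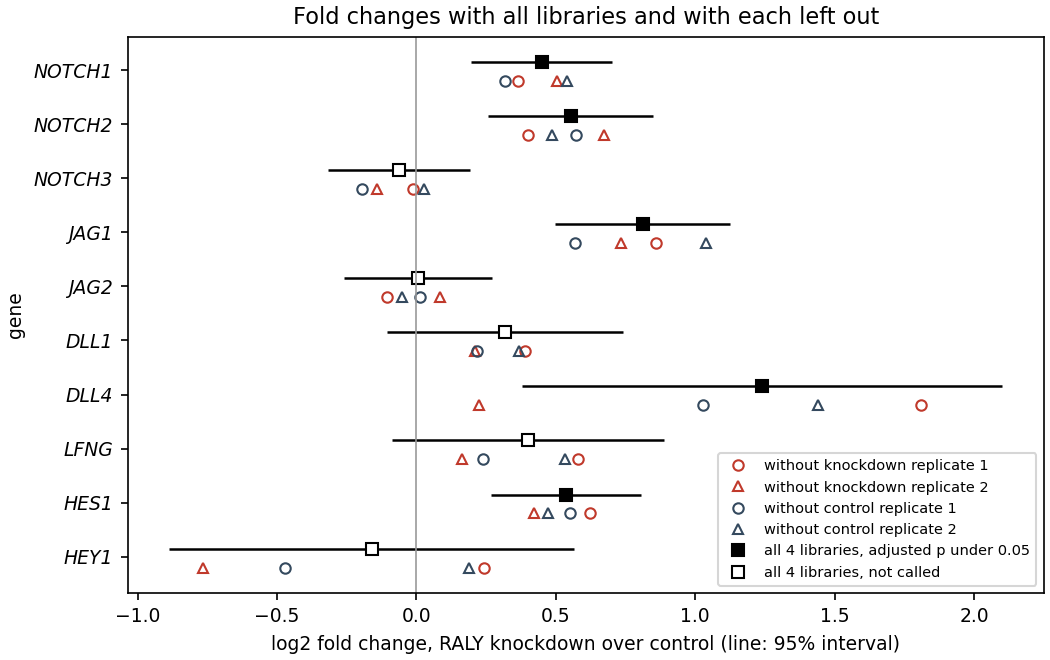
Log2 fold change of knockdown over control for the 10 Notch genes, with squares and 95% intervals for all 4 libraries (filled where the adjusted p was under 0.05) and open symbols for fits without 1 library. The JAG1, HES1, NOTCH1 and NOTCH2 symbols all lie above 0, while DLL4 lies at 0.22 without knockdown replicate 2 and at 1.81 without knockdown replicate 1, and HEY1 changes side.

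The promoter of HES1 is shown beside those of its relatives HES4 and HES6, because the calls for these genes of the same family differed: HES1 was called higher, HES4 was not called and HES6 was called lower. Each window runs from 250 bases before the gene's RefSeq start to 50 bases after it, is written 5′ to 3′ on the strand of the gene, and comes from RefSeq on GRCh38.p14: chr3:194135898-194136197 on the plus strand for HES1, chr1:1000048-1000347 on the minus strand for HES4 and chr2:238239989-238240288 on the minus strand for HES6. Capitals mark TGGGAA, the core of the sequence that RBPJ binds, or its reverse complement.
HES1: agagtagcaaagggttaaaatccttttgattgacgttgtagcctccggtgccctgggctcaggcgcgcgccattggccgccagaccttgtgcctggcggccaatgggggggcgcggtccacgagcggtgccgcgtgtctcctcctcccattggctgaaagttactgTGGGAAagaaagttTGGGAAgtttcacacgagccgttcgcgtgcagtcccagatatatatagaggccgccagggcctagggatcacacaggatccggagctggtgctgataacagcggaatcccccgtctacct
HES4: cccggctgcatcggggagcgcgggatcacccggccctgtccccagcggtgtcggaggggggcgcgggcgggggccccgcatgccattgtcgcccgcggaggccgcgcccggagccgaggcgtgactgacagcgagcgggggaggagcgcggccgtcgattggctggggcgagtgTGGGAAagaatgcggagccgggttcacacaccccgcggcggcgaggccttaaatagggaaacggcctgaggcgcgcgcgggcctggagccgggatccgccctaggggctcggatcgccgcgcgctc
HES6: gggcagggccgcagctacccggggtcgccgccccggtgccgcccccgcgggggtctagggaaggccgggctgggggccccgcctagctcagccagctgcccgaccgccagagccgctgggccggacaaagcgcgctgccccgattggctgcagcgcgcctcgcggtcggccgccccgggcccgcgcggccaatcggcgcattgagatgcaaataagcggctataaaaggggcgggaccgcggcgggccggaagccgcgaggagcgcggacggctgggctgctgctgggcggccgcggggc

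The HES1 window held TGGGAA at 2 places on the strand of the gene, which began 84 and 70 bases before its start. The HES4 window held it at 1 place, beginning 76 bases before the start, and the HES6 window held it on neither strand. Of the other relatives, HES7, called higher, and HES2, not called, had no match on either strand. HEYL, not called, had 1 on each strand. HES5 and HEY2, not tested for low counts, also had 1 on each strand. The windows printed were chosen by their calls, and no relation between matches and changes is read from them. Over all 35116 promoter windows of that length, 24.0% held TGGGAA on either strand and 1.21% held it at 2 or more places on the strand of the gene. The heptamer GTGGGAA, which contains it, was found on either strand in 6.25% of windows. The HES1, HES4 and HEYL windows held it at 1 place each, and the HES5 and HEY2 windows at 2 places each. Windows were looked at for 8 of the 10 Notch genes, DLL1 and HEY1 not among them. TGGGAA was present in those of HES1 and LFNG and in none of the other 6, NOTCH1, NOTCH2 and JAG1 among them. These matches describe letters in the windows and do not show binding. HES4 had 30.3 and 37.3 CPM in the knockdown libraries, against 29.7 and 31.4 CPM in the controls, which overlapped (log2 fold change 0.14, SE 0.154, edgeR adjusted p = 0.541).

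Per length, the order of the 10 genes in the knockdown was HES1, JAG2, JAG1, NOTCH2, NOTCH1, NOTCH3, DLL1, LFNG, DLL4 and HEY1, with means between 38.1 RPKM for HES1 and 2.11 RPKM for HEY1. In the controls it was JAG2, HES1, NOTCH2, JAG1, NOTCH3, NOTCH1, DLL1, LFNG, HEY1 and DLL4, with means between 32.7 RPKM for JAG2 and 1.44 RPKM for DLL4. HES1 averaged 38.1 ± 4.0 RPKM in the knockdown and 26.3 ± 1.32 RPKM in the controls, and JAG2 averaged 32.9 ± 2.85 RPKM in the knockdown and 32.7 ± 1.39 RPKM in the controls (SD, n = 2 each). In the controls the libraries of HES1 and JAG2 stood apart. In the knockdown they nearly touched, with 35.3 RPKM for HES1 and 34.9 RPKM for JAG2 in knockdown replicate 1. The means of this pair changed places per merged exon length, but by little in that library. With canonical transcript lengths the controls averaged 34.3 RPKM for HES1 and 36.3 RPKM for JAG2, and the libraries of the pair overlapped. In the knockdown the neighbours JAG1 and NOTCH2 overlapped, as did DLL1, LFNG, DLL4 and HEY1 from one neighbour to the next. In the controls NOTCH2, JAG1, NOTCH3 and NOTCH1 overlapped from one neighbour to the next, as did DLL1, LFNG and HEY1, and their order within those runs is not beyond the spread of the libraries.

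Outside the 10 genes, 6 lists held 67 other genes of the pathway, of which 60 were tested, 12 were called higher and 7 were called lower, or 20% and 11.7% of those tested, beside 12.5% and 13.1% of all tested genes. The median log2 fold change over the 60 genes was 0.06. Not tested for low counts were DLL3, DLK1, DTX3, TLE4, HES5, HEY2 and HELT, each with at most 8 counts in any library; HES5 and HELT had none in any library. DLK2 and NOTCH4, the ligand and receptor genes outside the set that were tested, were at 0.24 and -0.10 on the log2 scale (edgeR adjusted p = 0.413 and 0.828). RBPJ, the DNA-binding partner of all Notch receptors, had 170 and 167 CPM in the knockdown libraries, against 175 and 165 CPM in the controls (log2 fold change -0.01, SE 0.112, edgeR adjusted p = 0.962).

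**Figure D4:**
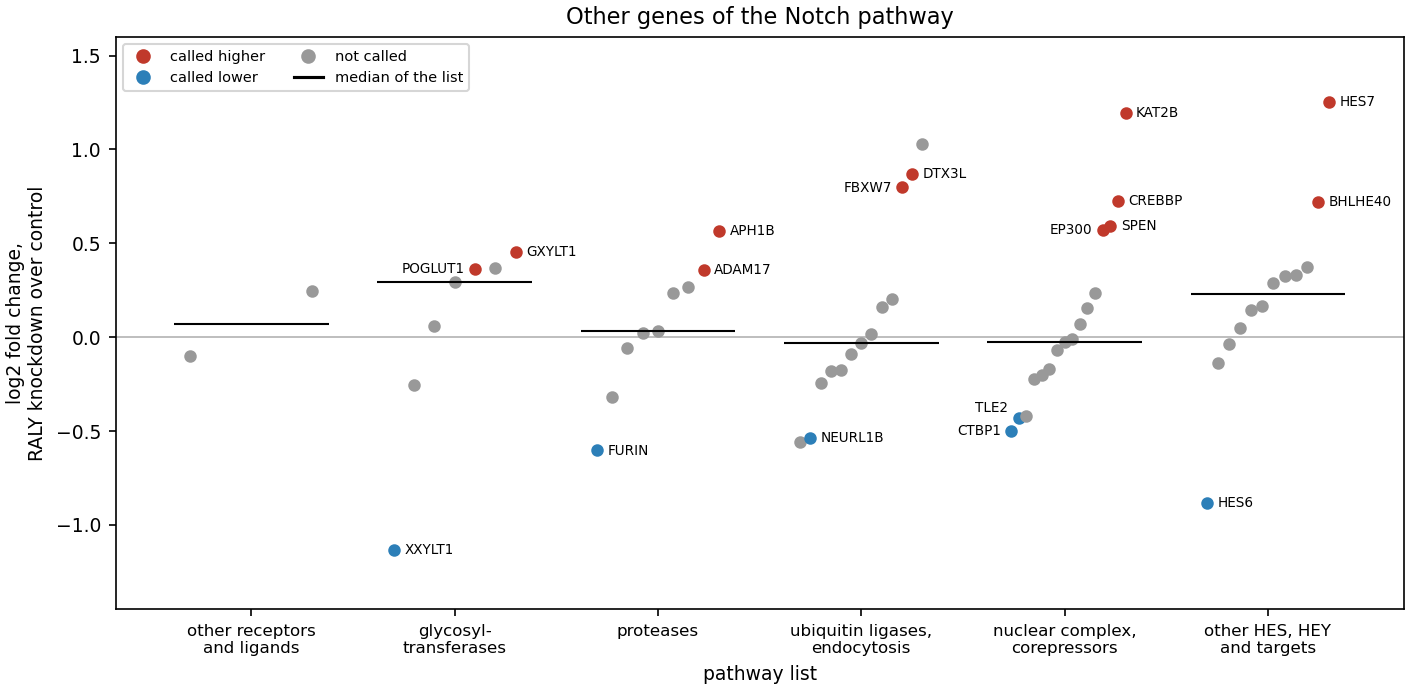
Log2 fold change of knockdown over control for tested genes of the 6 other pathway lists, 1 not shown, with 1 point per gene in order of its value, with called genes coloured and named and a black line at each list's median. The nuclear complex and corepressor list has called genes on both sides, CTBP1 at -0.50 and KAT2B at 1.19 among them.

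Among 7 glycosyltransferase genes that act on Notch, 2 rose and 1 fell (median log2 fold change 0.29). GXYLT1, which adds xylose to a glucose already on the receptor, had 98.1 and 90.7 CPM in the knockdown libraries, against 71.2 and 66.8 CPM in the controls (log2 fold change 0.45, edgeR adjusted p = 0.0119). POGLUT1, which adds that glucose, rose 1.29-fold (edgeR adjusted p = 0.0368). XXYLT1, which extends the xylose, had 9.61 and 6.99 CPM in the knockdown libraries, against 14.1 and 22.3 CPM in the controls, and fell (log2 fold change -1.13, edgeR adjusted p = 0.0075). Among 9 protease genes 2 rose and 1 fell (median 0.03). FURIN, the convertase that cuts the receptor on its way to the surface, had 76.4 and 87.2 CPM in the knockdown libraries, against 121 and 127 CPM in the controls, and fell (log2 fold change -0.60, edgeR adjusted p = 0.0028). APH1B, a subunit of gamma-secretase, rose 1.48-fold (edgeR adjusted p = 0.0137), and ADAM17, a metalloprotease, rose 1.28-fold (edgeR adjusted p = 0.0277). ADAM17 shares 13.6% of its exon bases with other genes, and its count is uncertain.

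Among 13 tested ubiquitin ligase and endocytosis genes 2 rose and 1 fell (median -0.03). FBXW7, the ligase subunit that marks the Notch intracellular part for destruction, had 100.1 and 106 CPM in the knockdown libraries, against 56.9 and 61.7 CPM in the controls. FBXW7 rose 1.74-fold (SE 0.113 on the log2 scale, edgeR adjusted p = 0.000515). DTX3L, a Deltex family ligase, rose 1.83-fold (edgeR adjusted p = 0.000581), with 82.9 and 70.9 CPM in the knockdown libraries, against 42.8 and 41.4 CPM in the controls. NEURL1B, a Neuralized ligase that acts on ligands, fell (log2 fold change -0.54, edgeR adjusted p = 0.0062). NUMB, a brake on the receptor, and MIB1, the ligase that drives ligand uptake, lay at -0.03 and 0.02 on the log2 scale (edgeR adjusted p = 0.864 and 0.945), and were named after their values were seen.

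Among 17 tested genes of the nuclear complex and its corepressors 4 rose and 3 fell (median -0.02). KAT2B, a histone acetyltransferase, had 60.3 and 68.2 CPM in the knockdown libraries, against 23.6 and 32.4 CPM in the controls, and rose 2.29-fold (edgeR adjusted p = 0.000358). The acetyltransferase genes CREBBP and EP300, whose products join RBPJ and Mastermind in the activating complex, rose 1.65-fold and 1.49-fold (edgeR adjusted p = 0.0023 and 0.0057). CTBP1, a corepressor, fell (log2 fold change -0.50, edgeR adjusted p = 0.0109), and shares 13.3% of its exon bases with other genes. Also called in that list, and named after their values were seen, were the corepressor genes SPEN, which rose 1.51-fold, and TLE2, which fell to 0.741 of the control level (edgeR adjusted p = 0.0181 and 0.0147).

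Among 12 tested HES, HEY and other reported target genes 2 rose and 1 fell (median 0.23). HES6, which counteracts HES1 in the mouse, had 33.2 and 34.6 CPM in the knockdown libraries, against 66.8 and 58.3 CPM in the controls. The groups stood well apart, and HES6 fell (log2 fold change -0.88, edgeR adjusted p = 0.000694), the opposite direction to HES1. BHLHE40, a repressor gene of the wider basic helix-loop-helix family, had 141 and 184 CPM in the knockdown libraries, against 102 and 95.8 CPM in the controls, and rose 1.65-fold (edgeR adjusted p = 0.0025). HES7, known from the segmentation clock, had 3.37 and 8.41 CPM in the knockdown libraries, against 1.97 and 2.89 CPM in the controls (log2 fold change 1.25, edgeR adjusted p = 0.0392), and without knockdown replicate 2 its log2 fold change was 0.45 (edgeR adjusted p = 0.417). HEYL and NRARP, direct target genes of the pathway named after their values were seen, lay at 0.33 and 0.29 on the log2 scale and were not called (edgeR adjusted p = 0.0655 and 0.145). Of the 17 called genes of the lists that the naming rule picked, the call was lost for 10 when control replicate 1 was left out and for 12 when control replicate 2 was, and FBXW7, DTX3L, KAT2B and HES6 were among those called with any 1 library left out.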

How the data were processed

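Gene counts were compared between 2 RALY knockdown and 2 control libraries of HCT116 cells. The deposited values are whole-number counts per Ensembl gene, unnormalized, with exon positions and merged exon lengths, as the file headers show. Per the submitters' processing notes, the GRCh38 build was used with featureCounts, Subread, SAMtools and HISAT2 2.0.4, with no role given for each. Settings, strand use and any removal of duplicate reads are not in the labels used here. Symbols came from GENCODE 44, which held 58472 of the 58884 identifiers.

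Genes were filtered with filterByExpr, scaled with TMM and tested with edgeR 4.0.16 (R 4.3.3, robust quasi-likelihood fit, 1 term for the group). Alternatives were DESeq2 1.42.0, other scalings and filters, leaving out each library, blocking on the replicate number, and counts corrected for levelling off. Levelling off itself was not tested, and the largest count was 17411. The correction assumes a ceiling of 2 counts per base of canonical transcript and was applied under 0.95 of it. Over the 200 protein-coding genes with the highest counts the median was 0.812 counts per base, while the highest was 3.04, above that ceiling. The Notch genes used between 2.53% and 32.2% of that ceiling. The libraries of a group were not 1 library deposited again: their chi-square over genes, per degree of freedom, was 9.32 in the knockdown and 5.10 in the controls.

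The members and lists were chosen with earlier results of these data known. Each list names up to 3 called genes with the smallest p in the commoner direction and 2 in the other, or 2 with the smallest p where none was called. The values of 1 called gene of the lists are not reported here, though the counts and medians include it.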

Additional observations from a re-analysis of the deposited data

How the results depend on the processing

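Under the scalings, filters and tests tried, 4 or 5 of the 10 Notch genes were called higher and none lower. Between 3943 and 5934 of all genes were called there in either direction, with no share given, since the number tested differed between filters. JAG1, HES1, NOTCH1 and NOTCH2 were called under each of these alternatives, and DLL4 was not called in 4. With 1 library left out, between 0 and 6 of the 10 were called higher and between 0 and 1 lower, between 5 and 21 pathway genes were called (19 with all libraries), and between 984 and 6259 of all genes (5048 with all libraries). A fit without 1 library takes its spread from the remaining pair of the other group, with the lone sample assumed to vary like it. With the replicate block, 5 of the 10, 24 pathway genes and 7054 of all genes were called, and the replicate block changed no call among the 10 genes. Deviations of same-numbered libraries correlated at 0.219 over all tested genes, and same-numbered libraries lay on the same side of their group in 8 of the 10 genes and in 56.6% of all tested genes; no label says that the numbers mark a shared culture or day. JAG2, near 0, changed sign with DESeq2 size factors (-0.0015 on the log2 scale), plain totals (-0.020), the DESeq2 Wald test (-0.0014) and no filter (-0.020), and ran between -0.10 and 0.086 with 1 library left out. NOTCH3 ran between -0.19 and 0.026, and HEY1 between -0.77 and 0.24. Where a value changed, the cause was not tested. DLL4, HEY1, LFNG and DLL1 had the lowest counts of the 10 genes, with between 72 and 364 counts per library. DLL4 and HEY1 also differed 3.04-fold and 2.04-fold between the knockdown libraries.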
